A study of Mus musculus with 12 samples.

Results

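MicroRNA pathway genes were examined in the mouse heart after injection of a hydrogel with or without an inhibitor of miR-195. The set was given by name, with no cut on measured values, and holds 10 of the 38293 genes in the deposited tables. It and the other gene lists were chosen with earlier results of these data known. Dleu2 and Smc4 carry miR-15 and miR-16 hairpins in their introns, and Ago1, Ago2, Ago3, Dicer1, Drosha, Dgcr8, Xpo5 and Tnrc6a, called the machinery genes here, encode proteins that make microRNAs or act with them. All 10 passed the filter on low counts. Polyadenylated RNA came from the left ventricle of C57BL/6J mice, without induced disease, killed 3 days after 2 injections of 10 µl into the heart muscle through an opened chest. The 4 PBS libraries (phosphate-buffered saline, no drug) are the control for surgery and injection. The 4 Upy-PEG libraries received the hydrogel Upy-PEG, polyethylene glycol chains joined by ureidopyrimidinone groups, with no drug. In the 4 antimiR-195 libraries the same hydrogel carried antimiR-195, an oligonucleotide against miR-195. Age, sex and whether each library is a separate animal are not given in the sources used here, so p-values measure the spread between these samples. No uninjected heart is among the groups.

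MicroRNAs are cut from long primary transcripts in the nucleus by Drosha, an RNase, with its RNA-binding partner Dgcr8. Xpo5 (exportin 5) carries the hairpin to the cytoplasm, Dicer1 cuts it to a duplex, and an Argonaute protein keeps a single strand as guide. Tnrc6a (GW182) then joins the Argonaute to deadenylases, so that paired messages are repressed and decay. The miR-15 family, to which miR-195 belongs, restrains cell cycle genes and is known in heart for its part in the arrest of cardiomyocyte division after birth.

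The sequences of the family show what the hosts and the inhibitor's target have in common. Among 1738 mature entries of the RefSeq table (GRCm38.p6), 11 entries with 10 names share the seed of miR-195a-5p, bases 2 to 8, printed in capitals:
mmu-miR-195a-5p: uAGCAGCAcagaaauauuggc
mmu-miR-16-5p: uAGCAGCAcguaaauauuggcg
mmu-miR-15a-5p: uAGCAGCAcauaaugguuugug
mmu-miR-15b-5p: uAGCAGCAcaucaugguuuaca
mmu-miR-497a-5p: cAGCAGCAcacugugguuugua
mmu-miR-322-5p: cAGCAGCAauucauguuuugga
Compared position by position from the 5′ end with the 21 bases of miR-195a-5p, miR-16-5p has the same base at 19, miR-15a-5p at 15, miR-15b-5p at 14, miR-497a-5p at 12 and miR-322-5p at 11. Names with the seed that are not printed are miR-195b, the same at 18, miR-6353 at 13, miR-6342 at 11 and miR-6419 at 10. The miR-16 and miR-15 sequences therefore match the inhibitor's target in the seed, and miR-16-5p nearly throughout.

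Dleu2, a long noncoding RNA (ENSMUSG00000097589, GRCm38 chr14:61602839-61682373, minus strand), holds Mir15a (chr14:61632027-61632110) and Mir16-1 (chr14:61631880-61631972). Both hairpins lie in an intron in 8 of the 8 annotated transcripts that span them, intron 4 of the longest. Smc4 (ENSMUSG00000034349, chr3:69004738-69034623, plus strand), a subunit of condensin, which compacts chromosomes in mitosis, holds Mir15b (chr3:69009772-69009835) and Mir16-2 (chr3:69009902-69009996). These lie in an intron in 5 of 5 spanning transcripts, intron 5 of the longest. The hairpins of the 2 hosts that carry the same mature miR-16 differ around it, as printed from RefSeq with miR-16-5p in capitals:
Mir16-1 in Dleu2: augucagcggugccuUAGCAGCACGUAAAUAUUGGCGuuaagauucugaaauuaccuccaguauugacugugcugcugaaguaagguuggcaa
Mir16-2 in Smc4: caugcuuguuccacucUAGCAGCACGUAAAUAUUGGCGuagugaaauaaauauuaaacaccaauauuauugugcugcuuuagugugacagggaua
The libraries were made from polyadenylated RNA and do not measure mature microRNAs. Rows for Mir15a, Mir16-1, Mir15b, Mir16-2 and Mir322 held 0 counts in every library, which allows up to 3 counts in each, so host transcript levels below say nothing of the level of their microRNAs.

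The libraries held 22353241 to 30278621 counts on genes, and 14770 genes were tested. The edgeR quasi-likelihood test with Benjamini-Hochberg adjustment called 0 genes (0%) at an adjusted p under 0.05 in each of the 3 comparisons, and so 0 of the 10 examined here. At an unadjusted p under 0.05 it passed 1944 genes (13.2%) for Upy-PEG against PBS, 9.33% with higher and 3.83% with lower values, and none of the 10. For antimiR-195 against Upy-PEG it passed 1930 (13.1%), 6.67% higher and 6.4% lower, with 1 of the 10, and for antimiR-195 against PBS 2444 (16.5%), 8.65% higher and 7.89% lower, with 2 of the 10. DESeq2 called 506, 13 and 51 genes at an adjusted p under 0.05, none of them among the 10. AntimiR-195 replicates 2 and 3 stood apart from the other libraries on the first principal component (35.1% of the variance). They were at −60.2 and −40.7, with the rest between −8.5 and 33.4. Fold changes of the 10 genes are therefore also shown without them. Fold changes of the genes in the other lists include both libraries throughout. All comparisons share groups: Upy-PEG is the second group of the antimiR-195 comparison and the first of the hydrogel comparison, and opposite signs in these are not independent.

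Per length, in the deposited RPKM of the PBS group (counts scaled by gene length and by total reads), the genes ranged from 9.88 ± 1.11 for Drosha to 0.468 ± 0.0921 for Dleu2 (SD, n = 4). Tnrc6a followed Drosha at 8.01 ± 1.07, then Xpo5 at 6.63 ± 1.07, Ago2 at 4.92 ± 1.44, Dicer1 at 4.62 ± 0.64, Smc4 at 4.07 ± 0.732 and Ago1 at 3.14 ± 0.401. Below these were Dgcr8 at 1.81 ± 0.105 and Ago3 at 1.26 ± 0.191. Each neighbouring pair in this order overlapped over the 4 libraries from Drosha down to Ago1. The steps from Ago1 to Dgcr8, from Dgcr8 to Ago3 and from Ago3 to Dleu2 were free of overlap. Drosha was thus listed far above Dgcr8, its partner in the nucleus, as RNA per length.

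**Figure D1:**
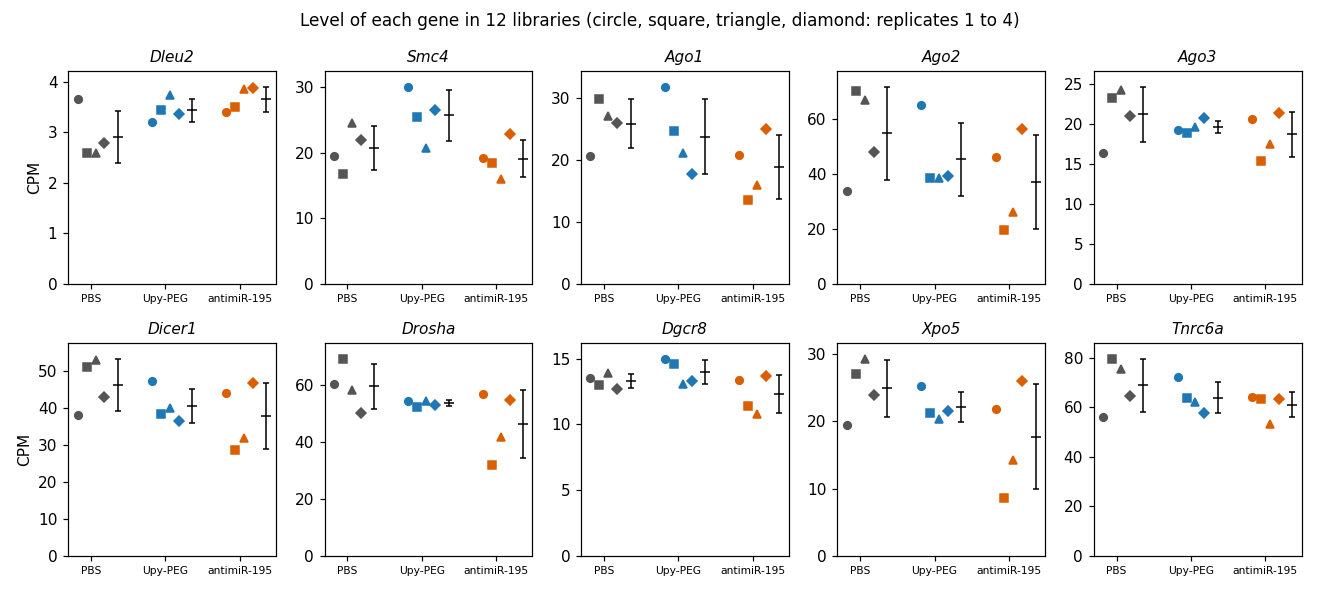
Level of each of the 10 genes in CPM (vertical axis, from 0) for the 4 libraries of each group, with the group mean ± SD beside them. The groups overlap in every panel, and antimiR-195 replicates 2 (square) and 3 (triangle) are low for most machinery genes, with Xpo5 at 8.56 and 14.3 CPM.

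Both host genes had higher values in Upy-PEG than in PBS, with neither called, and they differed in sign in the comparisons with antimiR-195. Dleu2 measured 3.65, 2.59, 2.58 and 2.79 CPM (counts scaled to library size with TMM factors) in PBS replicates 1 to 4, 3.20, 3.44, 3.73 and 3.36 in Upy-PEG, and 3.39, 3.49, 3.86 and 3.87 in antimiR-195. PBS replicates 2, 3 and 4 were below all 8 hydrogel libraries, and PBS replicate 1 was among them, so the groups overlapped. Its log2 fold change was 0.24 ± 0.155 (SE) for Upy-PEG against PBS (edgeR adjusted p = 0.578), 0.33 ± 0.156 for antimiR-195 against PBS (adjusted p = 0.307) and 0.09 ± 0.154 for antimiR-195 against Upy-PEG (adjusted p = 0.79). Without PBS replicate 1 the first of these was 0.37 and the second 0.46, the highest on leaving out a single library. The lowest were 0.185 and 0.275, both without PBS replicate 3. Between 61 and 112 counts per library lie behind these values, the fewest of the 10 genes. Dleu2 was the single gene of the 10 whose value was higher in antimiR-195 than in both other groups.

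Smc4 measured 19.5, 16.7, 24.6 and 21.9 CPM in PBS, 30.1, 25.4, 20.7 and 26.5 in Upy-PEG, and 19.2, 18.4, 16 and 22.8 in antimiR-195. Upy-PEG replicates 1, 2 and 4 lay above all PBS and antimiR-195 libraries, and Upy-PEG replicate 3 lay among them. The log2 fold change was 0.31 ± 0.148 for Upy-PEG against PBS (edgeR adjusted p = 0.395) and −0.42 ± 0.149 for antimiR-195 against Upy-PEG (adjusted p = 0.364). Smc4 was the 1 gene of the 10 with an unadjusted p under 0.05 in the second comparison, where 6.4% of all tested genes passed that mark with lower values. Against PBS the antimiR-195 value was −0.11 ± 0.15 (adjusted p = 0.681). Without antimiR-195 replicates 2 and 3, the value against Upy-PEG was −0.29 ± 0.171 (edgeR adjusted p = 0.647) and no longer had an unadjusted p under 0.05.

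Smc4 had the sign of 4 of the 7 other genes of its protein complex in Upy-PEG against PBS, and of 7 of 7 in antimiR-195 against Upy-PEG. Condensin has the paired ATPases Smc2 and Smc4, which join either Ncaph, Ncapg and Ncapd2 (condensin I) or Ncaph2, Ncapg2 and Ncapd3 (condensin II). Of the 8 genes, 0 passed the adjusted threshold in edgeR. In Upy-PEG against PBS 4 had an unadjusted p under 0.05 with higher values, where 9.33% of all genes did. In antimiR-195 against Upy-PEG 6 had one with lower values, where 6.4% of all genes did. Smc2 measured 4.82, 4.84, 5.83 and 6.13 CPM in PBS, 13.2, 9.68, 6.90 and 8.39 in Upy-PEG, and 4.41, 6.11, 4.55 and 7.51 in antimiR-195. All 4 Upy-PEG values of Smc2 exceeded all 4 PBS values.

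For Upy-PEG against PBS, the log2 fold change of Smc2 was 0.82 ± 0.215 (edgeR adjusted p = 0.114), that of Ncapg 1.19 ± 0.328, that of Ncaph 0.92 ± 0.295 and that of Ncapg2 0.88 ± 0.252. Ncapd2, Ncapd3 and Ncaph2 had values of −0.04, −0.08 and −0.02 there. With antimiR-195 against Upy-PEG, Smc2 had −0.76 ± 0.216, Ncapg −1.12 ± 0.329, Ncaph −0.74 ± 0.294, Ncapg2 −0.66 ± 0.251 and Ncapd2 −0.28 ± 0.106, each with an adjusted p of 0.364. Ncapd3 and Ncaph2 had −0.16 and −0.04. Genes of mitosis had values of the same signs: 20 of 20 were higher in Upy-PEG than in PBS. Of these, 19 had an unadjusted p under 0.05, where 9.33% of all genes did with higher values. Their median log2 fold change was 1.13, against −0.03 over all genes. For antimiR-195 against Upy-PEG, 20 of 20 had lower values, with a median of −0.77. An unadjusted p under 0.05 was found for 15 of them, and for 6.4% of all genes with lower values. Mki67, the proliferation antigen, had 1.23 ± 0.268 and −1.31 ± 0.27 in these comparisons, Bub1, a spindle checkpoint kinase, 1.51 ± 0.322 in the first, Bub1b −1.07 ± 0.252 in the second, and Kif20a, a kinesin of cytokinesis, 1.04 ± 0.233 and −0.94 ± 0.233.

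Markers of other cells also differed in value between the groups, with 0 past the adjusted threshold in edgeR. Of all tested genes, 9.33% were higher and 3.83% lower at an unadjusted p under 0.05 in Upy-PEG against PBS. For antimiR-195 against Upy-PEG these shares were 6.67% and 6.4%. The 10 macrophage markers summed to 597.6 to 925.7 CPM in PBS, 1129 to 1670 in Upy-PEG and 785.8 to 1551 in antimiR-195, with 10 of 10 higher in Upy-PEG than in PBS, 9 of them at an unadjusted p under 0.05, and 10 of 10 lower in antimiR-195 than in Upy-PEG, 5 of them at that mark. The 8 fibroblast markers summed to 2875 to 4748 CPM, 3896 to 8302 and 2690 to 4510 in the same order. Of these, 8 of 8 were higher in Upy-PEG than in PBS, 5 of them at that mark. In antimiR-195 against Upy-PEG 6 were lower, 3 of them at that mark, and 2 were higher. The 10 cardiomyocyte markers, which define the labelled tissue, were present in every group at summed levels of 87630 to 105500, 61820 to 87190 and 85580 to 104400 CPM. Of these, 10 of 10 had lower values in Upy-PEG than in PBS, 1 at an unadjusted p under 0.05, and 9 of 10 had higher values in antimiR-195 than in Upy-PEG, 6 at that mark. The 6 erythroid markers summed to 480.8 to 1458 CPM in PBS, 253.5 to 550.7 in Upy-PEG and 546.9 to 1315 in antimiR-195, with 6 of 6 lower in Upy-PEG than in PBS (5 at an unadjusted p under 0.05, median log2 fold change −0.96) and 5 of 6 higher in antimiR-195 than in Upy-PEG (5 at that mark, median 0.96). The 5 neutrophil markers summed to 9.04 to 27.2 CPM, 22.8 to 33.9 and 9.88 to 26 in the same order, with 5 of 5 higher and then 5 of 5 lower, 2 at that mark in each. Endothelial markers had lower values in Upy-PEG than in PBS in 8 of 8 cases (2 at that mark) and higher values in antimiR-195 than in Upy-PEG in 6 of 8 (0 at that mark). Of the 4 smooth muscle markers, 3 were higher and then 0, and of the 4 tested T and B cell markers 2 and then 1, none at that mark. No marker of these lists was at 0 in every library. The part of these cells in the values of Smc4 was not tested, and in bulk tissue fewer cells of a type and less RNA per cell cannot be told apart.

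The genes beside the hosts on the chromosome had values of their own. Ift80, a ciliary transport gene, starts 167 bases from Smc4 on the opposite strand, and Trim59, a ubiquitin ligase gene, ends 664 bases beyond it. Ift80 measured 5.51, 6.57, 6.87 and 5.50 CPM in PBS, 7.92, 7.93, 6.31 and 7.24 in Upy-PEG, and 7.19, 3.61, 4.35 and 6.66 in antimiR-195. Its log2 fold changes were 0.27 ± 0.199 (Upy-PEG against PBS) and −0.43 ± 0.201 (antimiR-195 against Upy-PEG), close in value to those of Smc4, with edgeR adjusted p of 0.638 and 0.381. The 2 antimiR-195 libraries that stand apart gave its lowest values.

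Trim59 measured 1.3, 1.19, 2.96 and 2.19 CPM in PBS, 6.34, 5.62, 3.17 and 3.99 in Upy-PEG, and 2.78, 4.04, 3.08 and 3.10 in antimiR-195. All 4 Upy-PEG values lay above all 4 PBS values, and the log2 fold change was 1.33 ± 0.294 (edgeR adjusted p = 0.0971), above that of Smc4. With antimiR-195 against Upy-PEG it was −0.56 ± 0.285. Kpna4, an importin gene further along, had −0.05 and −0.00 in these comparisons.

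On chromosome 14, Dleu2 spans Kcnrg and partly overlaps Trim13, both on the opposite strand, with 0 shared exon bases. Trim13, a ubiquitin ligase gene, had a log2 fold change of −0.04 ± 0.133 for Upy-PEG against PBS and 0.05 ± 0.133 for antimiR-195 against Upy-PEG. Spryd7 had −0.08 ± 0.0993 and 0.25 ± 0.0994, the second with an edgeR adjusted p of 0.364, and Rnaseh2b, a subunit of RNase H2, had 0.11 ± 0.177 and 0.17 ± 0.177. Kcnrg, Dleu7 and Il12a, also near the hosts, had at most 3, 4 and 15 counts in a library and were not tested. No neighbour of either host passed the adjusted threshold in edgeR.

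**Figure D2:**
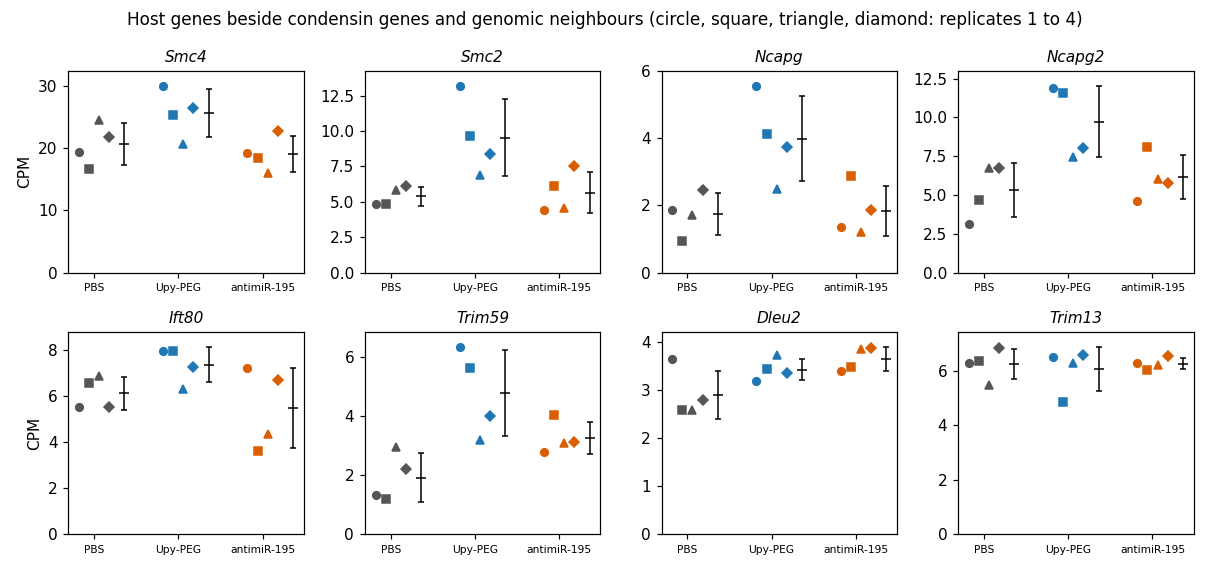
CPM (vertical axis, from 0) of Smc4 beside the condensin genes Smc2, Ncapg and Ncapg2 and the neighbours Ift80 and Trim59, and of Dleu2 beside Trim13, for the 4 libraries of each group with mean ± SD. Smc2 and Trim59 in Upy-PEG lie wholly above PBS, whereas Smc4 and Dleu2 overlap between groups and Trim13 stays between 4.86 and 6.85.

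In the nuclear step, the lowest 2 values of Drosha, as of Dgcr8, were those of antimiR-195 replicates 2 and 3. Drosha (ENSMUSG00000022191, chr15:12824815-12935291, plus strand) measured 60.1, 69.1, 58.3 and 50.2 CPM in PBS, 54.4, 52.3, 54.4 and 52.8 in Upy-PEG, and 56.9, 31.8, 41.5 and 54.8 in antimiR-195. The Upy-PEG libraries lay close together, while antimiR-195 split into 2 libraries near the others and 2 far below every other library. The log2 fold change was −0.15 ± 0.158 for Upy-PEG against PBS, −0.21 ± 0.159 for antimiR-195 against Upy-PEG and −0.36 ± 0.159 for antimiR-195 against PBS (edgeR adjusted p = 0.285). Without antimiR-195 replicates 2 and 3 the last was −0.08 ± 0.116.

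Dgcr8 (ENSMUSG00000022718, chr16:18253948-18289246, minus strand) measured 13.5, 13, 13.9 and 12.7 CPM in PBS, 15, 14.6, 13.1 and 13.3 in Upy-PEG, and 13.4, 11.4, 10.8 and 13.7 in antimiR-195. Its lowest 2 values were again antimiR-195 replicates 2 and 3. The log2 fold changes were 0.07 ± 0.106, −0.18 ± 0.106 and −0.11 ± 0.106 in the order used for Drosha, with edgeR adjusted p of 0.835, 0.427 and 0.568. Dgcr8 shares 825 exon bases with Trmt2a on the opposite strand, and the strand setting of the counting is not given in the sources used here, so reads of that pair may not be separated.

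Other proteins of this step gave no call either. Of 12 further genes of the microprocessor and its cofactors, 0 passed the adjusted threshold and 0 had an unadjusted p under 0.05 in Upy-PEG against PBS or in antimiR-195 against Upy-PEG (edgeR), with medians of 0.02 and 0.03. Ddx5, an RNA helicase, had −0.13 ± 0.101, Mettl3, the m6A writer, −0.13 ± 0.124 and Srrt, a partner of the cap-binding complex, 0.08 ± 0.0895 in the first comparison. In the second, Adar, an RNA-editing deaminase, had −0.40 ± 0.205 (adjusted p = 0.396). Khsrp, an RNA-binding protein, had −0.28 ± 0.149 and the helicase gene Ddx17 −0.23 ± 0.149 in the second.

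Xpo5 (ENSMUSG00000067150, chr17:46202782-46243598, plus strand) gave the lowest single value of the 10 genes relative to its own mean. It measured 19.5, 27.1, 29.3 and 23.9 CPM in PBS, 25.3, 21.2, 20.3 and 21.5 in Upy-PEG, and 21.9, 8.56, 14.3 and 26.0 in antimiR-195. AntimiR-195 replicates 2 and 3 were the lowest of the 12 libraries and replicates 1 and 4 lay within the range of PBS. Its log2 fold changes were −0.17 ± 0.254 for Upy-PEG against PBS, −0.32 ± 0.256 for antimiR-195 against Upy-PEG and −0.49 ± 0.256 for antimiR-195 against PBS (edgeR adjusted p = 0.33). Among the 10 genes only Ago2 had a larger SE. Without those libraries the value against Upy-PEG was 0.12 ± 0.159 and that against PBS −0.05 ± 0.16.

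In Upy-PEG against PBS, where 55.3% of all tested genes had lower values, the 5 other export genes had higher values in 5 of 5 cases. None of the 5 had an unadjusted p under 0.05 in edgeR, and their median log2 fold change was 0.19. Among these were Rcc1, the exchange factor that loads Ran with GTP, at 0.22 ± 0.11 (adjusted p = 0.42), Xpo1, the exporter of many proteins, at 0.19 ± 0.116, and Ranbp1 at 0.30 ± 0.2. With antimiR-195 against Upy-PEG, Ranbp1 had 0.29 ± 0.2, Rangap1, the activator of Ran's GTPase, −0.12 ± 0.0948 and Ran 0.08 ± 0.119. Xpo5 alone among the 6 had a lower value in Upy-PEG than in PBS.

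Dicer1 (ENSMUSG00000041415, chr12:104687742-104751952, minus strand), which cuts the exported hairpin, measured 38.0, 50.9, 53.0 and 42.8 CPM in PBS, 47.1, 38.3, 39.9 and 36.5 in Upy-PEG, and 44.0, 28.5, 31.8 and 46.7 in antimiR-195. The same 2 antimiR-195 libraries were lowest and the other 2 lay within the range of PBS. Its log2 fold changes were −0.19 ± 0.163, −0.10 ± 0.163 and −0.29 ± 0.163 for Upy-PEG against PBS, antimiR-195 against Upy-PEG and antimiR-195 against PBS (edgeR adjusted p of 0.697, 0.775 and 0.354). Without antimiR-195 replicates 2 and 3 the second turned to 0.17 ± 0.146.

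Of the Argonautes, Ago2, the member that can cut a paired message, varied most. Ago2 (ENSMUSG00000036698, chr15:73095844-73184935, minus strand) measured 33.9, 70.5, 67.0 and 48.0 CPM in PBS, 65.4, 38.6, 38.5 and 39.2 in Upy-PEG, and 46.4, 19.5, 26.2 and 56.4 in antimiR-195. Each group had values far apart, and in Upy-PEG replicate 1 lay well above the other 3, which lay close together. The log2 fold change was −0.27 ± 0.315 for Upy-PEG against PBS, −0.29 ± 0.316 for antimiR-195 against Upy-PEG and −0.56 ± 0.317 for antimiR-195 against PBS (edgeR adjusted p = 0.356). Without antimiR-195 replicates 2 and 3 the second turned to 0.18 ± 0.283 and the third came to −0.09 ± 0.286. Leaving out Upy-PEG replicate 1 brought the first to −0.49 and the second to −0.06. Ago2 shares 219 exon bases with Chrac1 on the opposite strand.

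Ago1 (ENSMUSG00000041530, chr4:126435012-126468583, minus strand), which lacks efficient cutting, measured 20.6, 29.9, 27.1 and 26.0 CPM in PBS, 31.9, 24.7, 21.1 and 17.7 in Upy-PEG, and 20.8, 13.6, 15.9 and 25.1 in antimiR-195. The Upy-PEG range held all but 2 of the other libraries, antimiR-195 replicates 2 and 3. Its log2 fold changes were −0.12 ± 0.205, −0.34 ± 0.207 and −0.45 ± 0.207 for Upy-PEG against PBS, antimiR-195 against Upy-PEG and antimiR-195 against PBS, the last with an adjusted p of 0.298 in edgeR. Ago1 and Drosha were the 2 of 10 with an unadjusted p under 0.05 in that comparison, where 7.89% of all genes passed with lower values. Without the libraries that stand apart the last value for Ago1 was −0.16 ± 0.21.

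Ago3 (ENSMUSG00000028842, chr4:126331704-126429556, minus strand) measured 16.4, 23.2, 24.2 and 21 CPM in PBS, 19.3, 18.9, 19.6 and 20.7 in Upy-PEG, and 20.6, 15.4, 17.5 and 21.4 in antimiR-195. Its extremes were PBS replicate 3 and antimiR-195 replicate 2, and the Upy-PEG libraries sat between. The log2 fold changes were −0.11 ± 0.134, −0.07 ± 0.135 and −0.18 ± 0.135 in the same order (edgeR adjusted p of 0.798, 0.821 and 0.471). Ago4, the remaining Argonaute and not among the 10, had −0.11 ± 0.0971, −0.06 ± 0.0976 and −0.17 ± 0.0976.

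As a share of the summed RPKM of Ago1 to Ago4, Ago2 made up 41.8 ± 5.37% in PBS, 39.4 ± 3.97% in Upy-PEG and 36.6 ± 7.46% in antimiR-195 (SD, n = 4 each). Its share was lowest in antimiR-195 replicates 2 and 3, at 28.5% and 32.1%, and highest in PBS replicate 3 at 46.2%. Ago1 held 27.3 ± 1.94%, 28.1 ± 3.32% and 26.2 ± 0.591%, Ago4 20 ± 3.75%, 20.9 ± 3.33% and 24.1 ± 5.41%, and Ago3 10.9 ± 0.688%, 11.7 ± 2.03% and 13.1 ± 1.75%. Ago4, at 29.8%, was above Ago2 in antimiR-195 replicate 2, whereas Ago2 was the highest Argonaute in the other 11 libraries.

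Of the 11 other genes of dicing and loading, mostly chaperones that open Argonaute for the duplex, 8 had lower values in Upy-PEG than in PBS. In antimiR-195 against Upy-PEG 9 had higher values, and 0 passed the adjusted threshold in edgeR in either comparison. Of all tested genes, 55.3% had lower values in the first comparison and 50.8% in the second. Fkbp4, a co-chaperone of Hsp90, had −0.39 ± 0.136 (adjusted p = 0.214) in the first comparison and 0.39 ± 0.136 (adjusted p = 0.364) in the second. Ahsa1, the activator of Hsp90's ATPase, had −0.12 ± 0.0952 and 0.23 ± 0.0953, and Hspa8, the constitutive Hsp70, had 0.27 ± 0.124 in the second. Hsp90ab1 had −0.17 ± 0.113 in the first. The median over the 11 was −0.07 and then 0.15, against −0.03 and −0.01 over all genes.

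Tnrc6a (ENSMUSG00000052707, chr7:123123885-123195296, plus strand), the scaffold of silencing, was the steadiest machinery gene in antimiR-195. It measured 55.9, 79.5, 75.4 and 64.5 CPM in PBS, 72.2, 63.6, 62.0 and 57.5 in Upy-PEG, and 64.2, 63.3, 53.2 and 63.2 in antimiR-195. Replicate 2 of antimiR-195, the lowest library for 6 of the 8 machinery genes, was level with its group here, and replicate 3 was the lowest of all. The log2 fold changes were −0.11 ± 0.121, −0.07 ± 0.121 and −0.17 ± 0.121 for Upy-PEG against PBS, antimiR-195 against Upy-PEG and antimiR-195 against PBS (edgeR adjusted p of 0.778, 0.804 and 0.432). Its paralogs had −0.15 ± 0.228, −0.16 ± 0.228 and −0.30 ± 0.229 (Tnrc6b) and −0.24 ± 0.123, 0.03 ± 0.123 and −0.21 ± 0.123 (Tnrc6c).

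Among 27 further silencing effectors, 20 had lower values in Upy-PEG than in PBS, as had 55.3% of all tested genes. In antimiR-195 against Upy-PEG 21 had lower values, as had 50.8% of all tested genes. The medians were −0.06 and −0.12, with 0 past the adjusted threshold in edgeR. In the first comparison 2 of the 27 had an unadjusted p under 0.05, both with higher values, where 9.33% of all genes did. In the second 0 had one. Pabpc1, the poly(A)-binding protein, had 0.35 ± 0.126 (adjusted p = 0.237) in the first comparison and −0.25 ± 0.126 in the second. The deadenylase gene Cnot6 had 0.23 ± 0.102 in the first. In the second Cnot3 had −0.36 ± 0.17 and Cnot11 0.20 ± 0.0962, subunits of the same CCR4-NOT complex with opposite signs. Cnot3 measured 11.6 and 16.7 CPM in antimiR-195 replicates 2 and 3, and 20.6 and 21.4 in replicates 1 and 4. Of 9 tested genes of microRNA tailing and decay, Tent2, a poly(A) polymerase of the cytoplasm, had 0.27 ± 0.0956 (adjusted p = 0.222) and −0.17 ± 0.0957, Dis3l2, an exonuclease for uridylated RNA, and Tut4, a uridyl transferase, had −0.15 ± 0.111 and −0.19 ± 0.177 in the first, and Xrn2, an exonuclease, and Zswim8, the ligase adaptor of target-directed decay, had −0.22 ± 0.13 and −0.30 ± 0.189 in the second. Lin28a and Lin28b, which block let-7 maturation, had at most 5 and 9 counts in a library and were not tested.

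**Figure D3:**
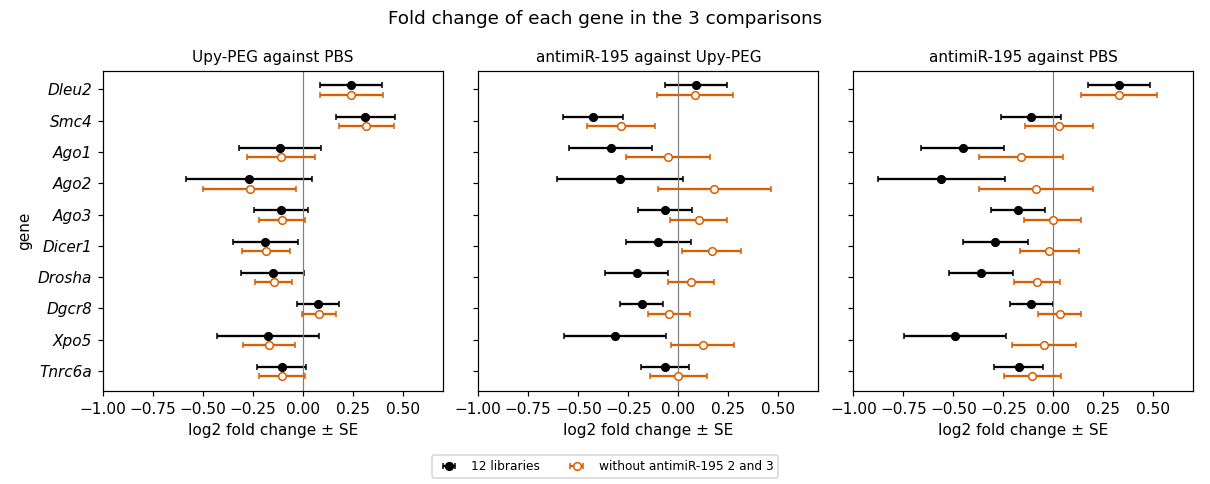
Log2 fold change ± SE (horizontal axis) of the 10 genes in each comparison, with all 12 libraries (black) and without antimiR-195 replicates 2 and 3 (open). Against Upy-PEG the open points of Ago2, Ago3, Dicer1, Drosha and Xpo5 lie above 0 and the black points below it, while Smc4 stays below 0 in both.

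Read across roles, the values were on the low side in most cases and none stood out from the spread. Log2 fold changes were below 0 for 7 of the 10 genes in Upy-PEG against PBS, where 55.3% of all tested genes were, for 9 of 10 in antimiR-195 against Upy-PEG (50.8% of all) and for 9 of 10 in antimiR-195 against PBS (49.2% of all). The medians of the 10 were −0.11, −0.20 and −0.23, beside −0.03, −0.01 and 0.01 over all genes. For 0 of the 10 were 2 groups free of overlap in any comparison; of all tested genes 9.68% were for Upy-PEG against PBS (5.91% higher, 3.77% lower), 4.4% for antimiR-195 against Upy-PEG (1.94% higher, 2.46% lower) and 6.06% for antimiR-195 against PBS (2.74% higher, 3.32% lower). Over 75 counts of called members, from 3 comparisons and the settings tried, none was above 0, and the smallest adjusted p of any of the 10 under any setting was 0.11.

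The 8 machinery genes were low together in the same libraries. As log2 CPM minus each gene's mean over the 12 libraries, they averaged −0.61 in antimiR-195 replicate 2 and −0.39 in replicate 3, with 8 of 8 below their mean in each, and 0.05 and 0.17 in replicates 1 and 4 of that group. They averaged 0.35 and 0.32 in PBS replicates 2 and 3 and 0.25 in Upy-PEG replicate 1. Replicate 2 of antimiR-195 was among the lowest 2 libraries for 7 of the 8 genes and for 33.6% of all tested genes, and replicate 3 for 7 of the 8 and for 27.6%. For 7 of the 8, replicates 2 and 3 were the lower pair of the antimiR-195 group; Tnrc6a was low in replicate 3 alone.

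**Figure D4:**
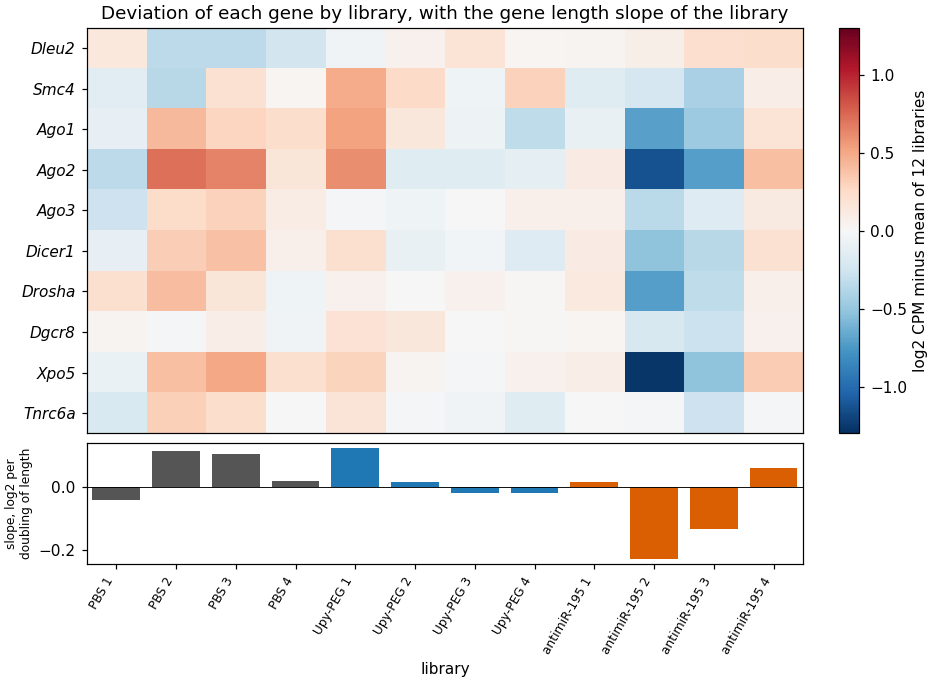
Colour scale of log2 CPM minus the mean of the 12 libraries for each gene (rows) and library (columns), above bars of each library's slope of log2 CPM on log2 gene length. The machinery genes are blue in antimiR-195 2 and 3, where the slopes are −0.229 and −0.135, and mostly red in PBS 2, PBS 3 and Upy-PEG 1, where they are 0.113, 0.102 and 0.122.

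A measure of gene length moved with this pattern. In antimiR-195 replicates 2 and 3 log2 CPM fell with gene length by 0.229 and 0.135 per doubling, and in PBS replicates 2 and 3 and Upy-PEG replicate 1 it rose by 0.113, 0.102 and 0.122. The slopes of the other 7 libraries were between −0.042 and 0.059. The 4396 tested genes over 5 kb, a class that holds 9 of the 10, had a median deviation of −0.29 in antimiR-195 replicate 2 and −0.21 in replicate 3, and the 3475 genes under 2 kb had 0.45 and 0.29. Xpo5, the exception at 3.71 kb, had deviations of −1.26 and −0.53 in these libraries, against medians of 0.01 and 0.03 in its class of 2 to 5 kb. Dleu2, at 6.14 kb, was at 0.08 and 0.22 there, opposite in sign to its class.

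With the slope of each library as a covariate, Ago2 had −0.12 ± 0.0688 for Upy-PEG against PBS, 0.16 ± 0.0762 for antimiR-195 against Upy-PEG (edgeR adjusted p = 0.568) and 0.04 ± 0.0802 for antimiR-195 against PBS, so the SE was under that without the covariate. Smc4 kept 0.33 ± 0.127 and −0.32 ± 0.141 in the first 2 comparisons (adjusted p of 0.137 and 0.565). For Xpo5 the values came to −0.06, −0.01 and −0.07. The part of gene length or of RNA quality in the low values of antimiR-195 replicates 2 and 3 was not tested beyond these fits.

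Across the 12 libraries, which share group structure and the pattern described, the 28 pairs of machinery genes had Pearson r of log2 CPM between 0.43 and 0.98, with a median of 0.75. The median was 0.72 after group means were taken out and 0.6 without antimiR-195 replicates 2 and 3, where the lowest was −0.22. Smc4 had a median r of 0.38 with the machinery genes, with Dgcr8 the highest at 0.78. Dleu2 had negative r with all 8, from −0.79 with Tnrc6a to −0.24 with Dgcr8. By the median r, Smc4 thus followed the machinery genes less closely than these followed each other. Dleu2 ran opposite to them over the 12 libraries. After group means were taken out, its r was 0 with Drosha, −0.13 with Dgcr8 and −0.80 to −0.24 with the others. Without antimiR-195 replicates 2 and 3 its r was 0.16 with Dgcr8 and −0.76 to −0.37 with the others. These are descriptions without a test.

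The genes most like each member over the 12 libraries, out of 14770, were taken by the highest r. For Dleu2 these were Mphosph6 and Upk1a (0.90 each), Uba2 and Magt1 (0.89 each) and Tra2a (0.87). For Smc4 they were Mob1a and Inpp5d (0.94 each), Epb41l2 and Fam171b (0.93 each) and Gm15931 (0.91), with r between 0.83 and 0.90 after group means were taken out. Ago2 was closest to Plxna4 and Hcn4 (0.99 each) and Ncor1 (0.98), Ago1 to Mast4, Zfp704 and Hnrnpul1 (0.98 each), and Ago3 to Mapk10 (0.97), Ctnna3 and Mme (0.95 each). Xpo5 was closest to Pogz, Dag1 and Dennd5a (0.99 each), Dicer1 to Nup98, Usp24 and Ddx6 (0.98 each) and Drosha to Tnpo3, Gpam and Golga2 (0.97 each). Dgcr8 was closest to Map7d3, Poldip3 and Smarcc1 (0.96 each), and Tnrc6a to Magi2 (0.95), Kmt2a and Sgcd (0.94 each). The length slope of the libraries itself had an r of 0.98 with Ago2, 0.96 with Dicer1 and Xpo5, and 0.95 with Ago1. For the other machinery genes this r was between 0.69 and 0.85, for Smc4 0.49 and for Dleu2 −0.55. Whether the genes named here share regulation with the members was not tested.

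Several of the machinery messages carry letters that pair with the seed shared by miR-195, miR-15 and miR-16. The match to bases 2 to 8 is TGCTGCT (7mer-m8), and TGCTGCTA when an A follows (8mer); both were searched on the transcript strand of the longest annotated 3′ untranslated region. These regions came from annotated transcripts of any type, so part of a region may be coding in another transcript of the gene. The region of Smc4 held 3831 bases, beside a gene length of 5.03 kb. Dleu2, a noncoding RNA, was not searched. A match of either kind was found in Ago1, Ago2, Ago3, Tnrc6a and Xpo5 and not in Dgcr8, Dicer1, Drosha or Smc4. In regions taken the same way, 27.2% of 13337 tested genes had one, a share not matched for length. Tnrc6a had the single 8mer of the 9 genes searched. Its window ends at 123171381, inside a gene that ends at 123195296. Whether these letters are untranslated in other transcripts of Tnrc6a was not tested. Ago3 had 4 matches, of which 2 overlap, in a region of 12745 bases. The matches of Tnrc6a, Xpo5 and Ago2 are shown with the pairing letters in capitals, on GRCm38:
Tnrc6a, chr7:123171352-123171381, plus strand: gtgggaagatgactcTGCTGCTAcaggaat
Xpo5, chr17:46242671-46242699, plus strand: cccacttgagcccctTGCTGCTgggctaa
Ago2, chr15:73105304-73105332, minus strand: gagccttctcttgtgTGCTGCTctgtgct
Ago2, chr15:73096435-73096463, minus strand: gatcttttatattcaTGCTGCTtctagtc
A match is letters in a window and not a shown site. With antimiR-195 against Upy-PEG, the genes with a match had log2 fold changes of −0.34 (Ago1), −0.29 (Ago2), −0.07 (Ago3), −0.32 (Xpo5) and −0.07 (Tnrc6a), and those without had −0.42 (Smc4), −0.10 (Dicer1), −0.21 (Drosha) and −0.18 (Dgcr8). None of the 9 had a higher value with the inhibitor. Without antimiR-195 replicates 2 and 3 the genes with a match had −0.05, 0.18, 0.10, 0.12 and −0.00 in that order, and those without had −0.29, 0.17, 0.06 and −0.05, each within 2 SE of 0.

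Hosts of other microRNAs, a list of 25 of which 24 were tested, had 0 genes past the adjusted threshold in edgeR. Dnm3os, the host of miR-199a and miR-214, had 1.12 ± 0.267 for Upy-PEG against PBS (adjusted p = 0.0986), Mest, the host of miR-335, 0.77 ± 0.284, and Myh6, the cardiac myosin gene that hosts miR-208a, −0.42 ± 0.17. With antimiR-195 against Upy-PEG, Srebf2, the host of miR-33, had −0.39 ± 0.189, Mir155hg, the host of miR-155, 0.69 ± 0.38, and Egfl7, the endothelial host of miR-126, 0.26 ± 0.145. Dleu2 and Smc4, with 0.24 and 0.31 for Upy-PEG against PBS, lay between the values of that comparison. The median of the list was −0.01 in both comparisons.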

How the data were processed

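RNA of 12 left ventricle samples was analysed, grouped by the source and drug labels. Per the submitters' processing notes, the authors aligned reads to GRCm38 with STAR, counted them per gene with HTSeq and used DESeq; versions, annotation and strand setting are not given in the sources used here. The deposited read counts per gene are whole numbers, and the series table equalled the per-sample files in 459516 of 459516 cells. The deposited RPKM values are counts scaled by gene length and library total, and dividing counts by them gave 1 length per gene for 23961 genes. Reads on no gene (6.25% to 8.77%) and ambiguous reads (0.664% to 0.898%) were left out of the gene totals.

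Symbols and positions came from GENCODE vM21, which gave a symbol to 36345 gene IDs holding 99.86% of the counts. Counts of all 12 libraries were tested with edgeR 4.0.16 (R 4.3.3, limma 3.58.1): filterByExpr by group with a minimum count of 10, TMM, a quasi-likelihood fit with 1 mean per group (9 residual degrees of freedom), p-values adjusted by Benjamini-Hochberg over 14770 genes, threshold 0.05. The SE is the size of the log2 fold change over the root of F. CPM are TMM-scaled; a prior count of 2 was added for log2 CPM. On simulated counts for Upy-PEG against PBS, over 14635 genes, 70.7% of 99 genes changed by a log2 fold of 1 and 93% of 100 changed by 2 were recovered, with 10 false calls. Folds as small as those of the members were not simulated, nor were libraries with a slope on gene length. These shares therefore do not give the power for the members. The labels give no batch or pairing.

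The members and the other gene lists were chosen with earlier results of these data known. Named were the members, the condensin and neighbour genes, of each other list the genes with the 3 lowest p in each of the main comparisons, and the genes of highest r. Marker lists are given as sums and counts instead. Alternatives tried were limma-trend on log2 RPKM (pseudocounts 0.1 and 1), DESeq2 1.42.0, sample-weighted voom, RLE size factors, library size alone, unfiltered genes, genes with a mean CPM of 1 or more, a threshold of 0.1, fits of the 8 compared libraries, the length slope of each library as covariate, the hydrogel groups joined against PBS, and fits without antimiR-195 replicates 2 and 3 or without each library. Sequences came from RefSeq tables and the GRCm38 reference; the Mir15a hairpin is named only.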

Additional observations from a re-analysis of the deposited data

Results flagged for a closer look

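Of 30 sets of 4 CPM values, 10 genes in 3 groups, 2 had a library far from the other 3; chance alone sets apart about 1 in 20. Ago2 in Upy-PEG replicate 1 was at 65.4 CPM, with the other Upy-PEG libraries at 38.5 to 39.2. Tnrc6a in antimiR-195 replicate 3 was at 53.2 CPM, with the others of the group at 63.2 to 64.2. The row of Mir195a, the precursor gene of the inhibitor's target, which no comparison uses, held 6 counts in antimiR-195 replicate 3 and 0 in the other 11 libraries, where a count of 0 allows up to 3.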

How the results depend on the processing

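No paired analysis was possible because replicate numbers follow the order of deposition and the labels tie no samples together. No member was called under any setting in any comparison. Of 700 alternative values of member fold changes, 671 kept direction and side of the threshold and 29 changed sign, each with an adjusted p above 0.05. All-gene calls depended on the setting. For Upy-PEG against PBS, in place of 0, they came to 506 (DESeq2), 918 (voom), 332 (length slope), 349 (without antimiR-195 replicates 2 and 3), 172 (only the 8 libraries), 155 (adjusted p under 0.1) and 69 (no filter), and 0 to 150 on leaving out single libraries, with 150 without antimiR-195 replicate 2 and 46 without Upy-PEG replicate 3. For antimiR-195 against Upy-PEG DESeq2 gave 13, and for antimiR-195 against PBS 51, with 1 each by voom and without a filter. The cause was not tested.

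For Upy-PEG against PBS, library size alone gave 0.00424 (Ago1) and 0.00249 (Tnrc6a), limma-trend on log2 RPKM gave 0.00269 (Ago3, pseudocount 0.1) and 0.000102 and 0.000186 (Tnrc6a, pseudocounts 0.1 and 1), and both hydrogel groups together gave −0.0188 (Dgcr8). For antimiR-195 against Upy-PEG, Dleu2 came to −0.0578 with library size alone and −0.0525 and −0.0219 with limma-trend. With the length slope Ago2 came to 0.164, Ago3 to 0.0763, Dicer1 to 0.129 and Tnrc6a to 0.0467. Without antimiR-195 replicates 2 and 3 the values were 0.18 (Ago2), 0.102 (Ago3), 0.166 (Dicer1), 0.0646 (Drosha) and 0.122 (Xpo5), and voom gave 0.00955 (Ago3) and 0.0566 (Dicer1). For antimiR-195 against PBS, the length slope gave 0.0156 (Smc4), 0.0409 (Ago2), 0.0162 (Ago3) and 0.00486 (Dicer1), and leaving out both libraries gave 0.0295 (Smc4) and 0.0308 (Dgcr8).

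Leaving out single libraries, Ago1 for Upy-PEG against PBS ranged from −0.282 to 0.00271, and for antimiR-195 against Upy-PEG Ago3 ranged from −0.138 to 0.0091 and Dicer1 from −0.22 to 0.00391. Depth limits Dleu2 most, at 61 to 112 counts a library.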
